A study of Columba livia with 4 samples.

Results

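Acetylated domains shorter than 20 kb that held at least 2 SOX10 summits were examined in primary melanocytes of the pigeon (Columba livia), the pigment cells of skin and feather. H3K27ac peaks of a scaffold were joined over gaps of up to 5 kb, which gave 17608 domains, and 17104 of these were under 20 kb. Of all domains, 384 (2.18%) met the rule, and they held 835 of the 6579 listed SOX10 summits (12.7%) and 1176 of the 34223 H3K27ac peaks (3.44%). They are called multi-summit domains here. The domains were chosen by their number of SOX10 summits, the extent of H3K27ac and their length, so these values are descriptions. H3K27me3 played no part in the rule. The fold of the H3K27ac and SOX10 peaks and the place of each summit within its domain were not used directly. Only peaks that passed the cutoffs of the lists could enter, however, and each domain begins and ends in an H3K27ac peak.

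All samples were wild-type cells grown in the same medium, with fetal bovine serum (10%), Nu-serum (5%), 85 nM of the phorbol ester TPA, cholera toxin (40 ng/mL) and endothelin-3 (10 ng/mL). Chromatin was immunoprecipitated with antibodies against SOX10, H3K27ac or H3K27me3, and an input of the same cells was also sequenced. Each target had 1 library, so no value below has a replicate error, and the sources used here do not name the animals behind the cultures. The cell type was not checked against marker genes, since positions refer to AKCR02 scaffolds and no gene annotation of that assembly was used here.

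SOX10 is a transcription factor of the SoxE family with a DNA-binding HMG box. It is needed for neural crest cells to become melanocytes and glia, and in melanocytes it acts beside MITF on enhancers of pigment genes. Acetylation of lysine 27 of histone H3 marks active promoters and enhancers, and trimethylation of the same residue is deposited by Polycomb repressive complex 2. Enhancers often lie in groups, so an acetylated domain can contain several separate factor-bound elements. A summit is the base of a peak at which the caller found the most enrichment.

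Most multi-summit domains held the minimum number of summits. There were 330 with 2 summits (85.9%), 43 with 3, 9 with 4 and 2 with 5. Their median length was 9325 bp (interquartile range 5769 to 14327.5 bp), and the shortest was 620 bp. Domains of the same class with exactly 1 summit numbered 2368 and were shorter, with a median of 3405 bp. These were therefore weighted so that each 1 kb bin of length carried the same share as among the multi-summit domains. After weighting, their median length was 9366 bp. Comparisons by class of length are the exception: they used all domains of a class without weights. Every multi-summit domain had a length bin with at least 1 such counterpart. Intervals are exact 95% binomial intervals for shares and order-statistic intervals for medians. They cover counting error only, the weighted counterpart is taken as fixed, and neighbouring peaks are not independent.

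The 10 domains with the most summits, ties going to the shorter domain, had every one of their summits inside an H3K27ac peak. A domain of 5 summits covered the whole 2.279 kb span of scaffold AKCR02002304.1, so its full length is not known. It was 1 H3K27ac peak of fold 23.2. Its summits lay 265 to 577 bp apart, and the SOX10 folds over local background were, from left to right, 4.61, 5.41, 4.81, 3.86 and 4.67. The fold of the fourth was the lowest although it held the most fragments, 53 over a background of 12.98, against 21 to 27 fragments over backgrounds of 3.77 to 4.99 at the other summits. The other domain of 5 summits, of 17.1 kb at 12109844 to 12126897 of AKCR02000019.1, had 2 groups of summits inside 1 H3K27ac peak. The first 2 summits were 305 bp apart, the next lay 7299 bp away, and the last 3 were separated by 1268 and 1691 bp. The last of these was the strongest, with a fold of 5.93 and 48 fragments.

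Of the domains with 4 summits, the most compact was 3606 bp long, at 5570553 to 5574158 of AKCR02000030.1. Its first summit had a fold of 7.87 with 109 fragments (exact 95% Poisson interval 89.5 to 131), and the 3 others had folds of 2.81, 3.73 and 4.59. At 8350052 to 8358355 of AKCR02000026.1, the 4 summits lay within 1854 bp of each other in the right part of a single 8304 bp acetylated peak, with folds of 2.60 to 3.67. At 2363438 to 2372271 of AKCR02000068.1 they were spread over 7352 bp, and the fold went from 2.36 at the left end to 5.44 at the right. From left to right these 4 summits had 32, 24, 31 and 50 fragments, over backgrounds of 12.98, 8.24, 7.45 and 8.37. The domain at 70133931 to 70140144 of AKCR02000002.1 had an H3K27ac fold of 20.1 and SOX10 folds of 2.30 to 4.09, with 227 bp under H3K27me3. The one at 91261791 to 91277685 of AKCR02000001.1 had 6 H3K27ac peaks, the highest of fold 21.9, and 2773 bp under H3K27me3. The other 3 of the 10 were 8.93 to 17.1 kb long, lay on AKCR02000012.1, AKCR02000003.1 and AKCR02000052.1, and had no base under H3K27me3.

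**Figure D1:**
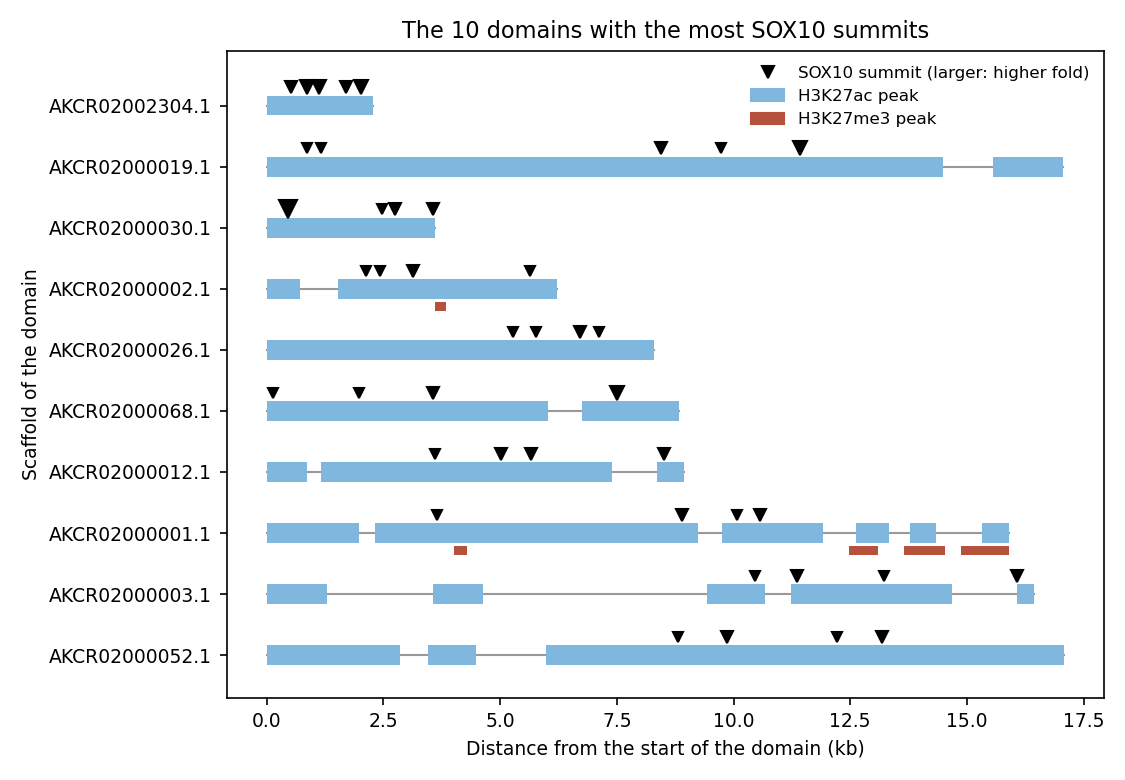
Maps of the 10 domains with the most SOX10 summits, by scaffold, with the distance from the start of the domain in kb on the horizontal axis. Blue boxes are H3K27ac peaks, red boxes H3K27me3 peaks and triangles SOX10 summits, larger for a higher fold. All summits sit over a blue box, and 2 of the 10 domains carry red boxes.

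Neighbouring summits were mostly within a few kilobases of each other. Over the 451 neighbouring pairs the median distance was 1956 bp (1625 to 2263 bp), with an interquartile range of 753.5 to 4351.5 bp. Of the pairs, 68 (15.1%) lay under 500 bp apart, 145 (32.2%) under 1000 bp and 351 (77.8%) under 5000 bp. In domains with 2 summits, the distance was a median of 29.6% of the domain length. The spacing followed the length of the domain: its median was 405 bp in domains under 2 kb, 768.5 bp at 2 to 5 kb, 2214.5 bp at 5 to 10 kb, 3134 bp at 10 to 15 kb and 3629 bp at 15 to 20 kb. In domains of 20 kb or more with several summits, which the length limit leaves out, the 439 pairs had a median spacing of 5134 bp. A domain caps the distance that can occur in it, and the part of the length limit in this difference was not tested. With only domains under 10 kb, 207 domains remained and the median spacing was 1240 bp.

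The spacing differed with the acetylated peak in which the summits lay. Both summits were in the same H3K27ac peak in 247 pairs (54.8%, 50.04 to 59.4%), and these lay a median of 847 bp apart (770 to 1050 bp), or 25.3% of the width of the shared peak. Summits in different H3K27ac peaks made up 119 pairs (26.4%) with a median spacing of 5224 bp (4457 to 5906 bp), and 74 of these were in peaks next to each other, with a median gap of 1050.5 bp. Another 72 pairs (15.96%) had 1 summit in a peak and 1 in a gap, with a median of 3434 bp, and in 13 pairs both were in gaps. Under 500 bp, 61 of 68 pairs shared a peak, and at 2000 bp or more 56 of 223 did. Summits in the same peak cannot be farther apart than its width, so the order of these medians is in part set by the classes.

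**Figure D2:**
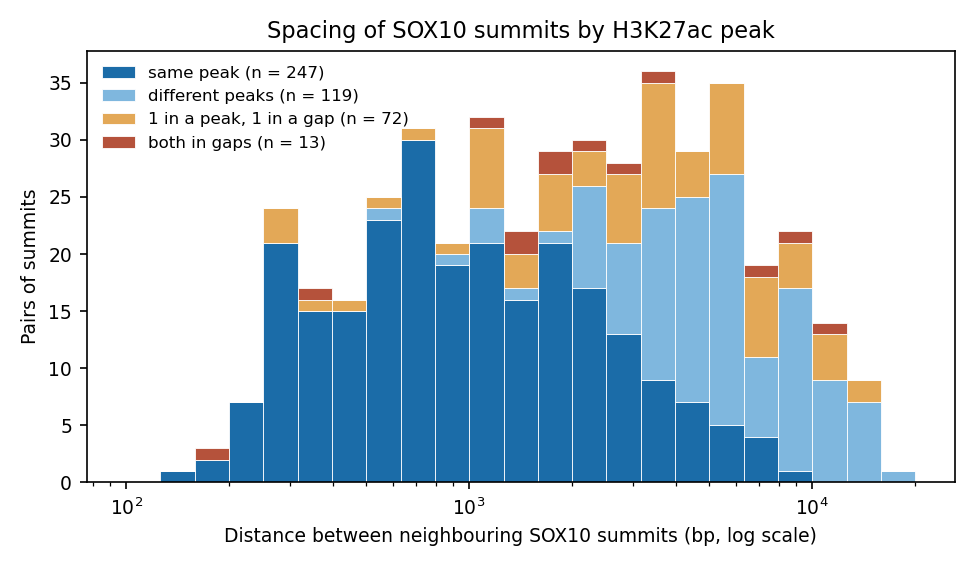
Number of pairs of neighbouring SOX10 summits by the distance between them in bp on a log scale, coloured by whether the summits share an H3K27ac peak. The 247 pairs in the same peak lie at a median of 847 bp and the 119 in different peaks at a median of 5224 bp.

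The closest pairs lay nearer to each other than the sheared chromatin is long, 300 to 500 bp on average. They are thus below what the assay readily resolves, and the other pairs under 500 bp are near that limit. The smallest distance was 155 bp, at 9704978 to 9710183 of AKCR02000009.1, between a summit of fold 3.81 with 37 fragments and one of fold 2.07 with 32 fragments over a higher background (15.0 against 8.98 fragments). The next were 165 bp on AKCR02000016.1, 167 bp on AKCR02000054.1, 195 bp on AKCR02000068.1 and 206 bp on AKCR02000130.1. The pair on AKCR02000054.1 had the highest folds of these, 4.52 and 4.10 with 52 and 44 fragments, and both of its summits lay in a gap between H3K27ac peaks. The SOX10 list gives 1 summit per peak, so bound positions inside the same peak appear as 1 summit. The SOX10 peaks in multi-summit domains had a median width of 203 bp (131 to 690 bp), and the closest peaks of the list are 77 bp apart. Counting summits under 500 bp apart as 1 left 331 domains with a median spacing of 2641 bp.

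Summits sat in the acetylated peaks and not often in the gaps between them. Of the 835 summits, 743 (89.0%, 86.7 to 91.0%) were inside an H3K27ac peak, although peaks made up 68.5% of the bases of these domains. This was 2.86 summits per 10 kb of peak against 0.768 per 10 kb of gap, a ratio of 3.72. In the length-matched domains with 1 summit, 86.4% of summits were inside a peak, peaks made up 59.9% of the bases, and the ratio was 4.26. The share in peaks was thus 2.57 percentage points higher in multi-summit domains (0.243 to 4.61), while the ratio of densities was lower. Domains begin and end in an H3K27ac peak, and summits just beyond an outer edge are not counted. The shares in peaks are therefore in part set by the rule. Where a domain was a single H3K27ac peak, every summit was inside it by construction. Such domains were 19.8% of the multi-summit domains and 12.9% of the length-matched ones, and their part in the difference in share was not tested. With only SOX10 peaks of a −log10 q of at least 5, which left 153 multi-summit domains, the difference in share of summits in peaks turned to −1.16 percentage points. It was 1.33 to 1.53 points, with intervals that reached below 0, when summits under 500 bp apart counted as 1, for nearest-length pairs or with H3K27ac peaks of a −log10 q of at least 3.

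In 306 of the 384 domains (79.7%) every summit was inside an H3K27ac peak, in 195 (50.8%) all were in 1 peak, and in 11 (2.86%) none was in a peak. The 92 summits in gaps were close to an edge: their median distance to the nearest H3K27ac peak was 138.5 bp, against 152 bp for the length-matched gap summits, and for 37 of them the SOX10 peak itself still touched acetylated bases. By the authors' fold, gap summits had the higher median. Their median was 3.55 (3.34 to 3.84) with 37 fragments, beside 3.31 (3.25 to 3.39) with 33 fragments for summits in peaks. Inside a peak, 66.8% of summits (63.2 to 70.1%) lay in its central 50%, against 73.7% in the length-matched domains with 1 summit. Only multi-summit domains can have several summits in a peak (215 peaks), and the part of this in the difference was not tested. Seen from the domain, summits lay a median of 1752 bp from the nearer end, which was 22.9% of the domain length, close to the 23.1% in the length-matched domains.

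H3K27ac coverage and fold were both higher in multi-summit domains than in domains of like length with 1 summit, with no replicate against which to test it. Only length was matched. Since summits were denser in peaks than in gaps, choosing by number of summits also favours domains with more acetylated bases. The part of this in the differences was not tested. A median of 73.1% (69.6 to 76.0%) of the length was under H3K27ac peaks, against 61.7% in the length-matched domains with 1 summit and 52.0% in length-matched domains with 0 summits. The highest H3K27ac fold of a domain had a median of 8.57 (8.11 to 8.90), against 6.99 with 1 summit and 6.14 with 0. The widest peak of the domain had a median of 3549.5 bp, against 2921 bp and 2256 bp, and the median number of peaks was 3, 3 and 4. A single unbroken H3K27ac peak made up 76 of the 384 domains (19.8%), against 12.9% of the length-matched domains with 1 summit. The difference in coverage, 11.5 percentage points, was 6.43 when peaks were joined over gaps of up to 2 kb only.

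The order of the 3 classes was the same in each class of length for the highest H3K27ac fold. Within a class of length the domains were not weighted, so their lengths can still differ. In domains of 5 to 10 kb its median was 7.82 with several summits, 6.61 with 1 and 5.55 with 0, and at 15 to 20 kb it was 9.12, 8.26 and 7.38. The interquartile ranges overlapped from 2 kb upwards, and at 5 to 10 kb they were 5.62 to 11.1, 5.17 to 8.78 and 4.36 to 7.70. Under 2 kb, those with several summits (5.12 to 12.03, only 23 domains) and with 0 (3.08 to 4.84, 9457 domains) did not. Coverage had the same order from 2 kb upwards, with medians of 72.1%, 57.6% and 46.5% at 5 to 10 kb, and was 100% in all 3 classes under 2 kb, where most domains were 1 peak.

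**Figure D3:**
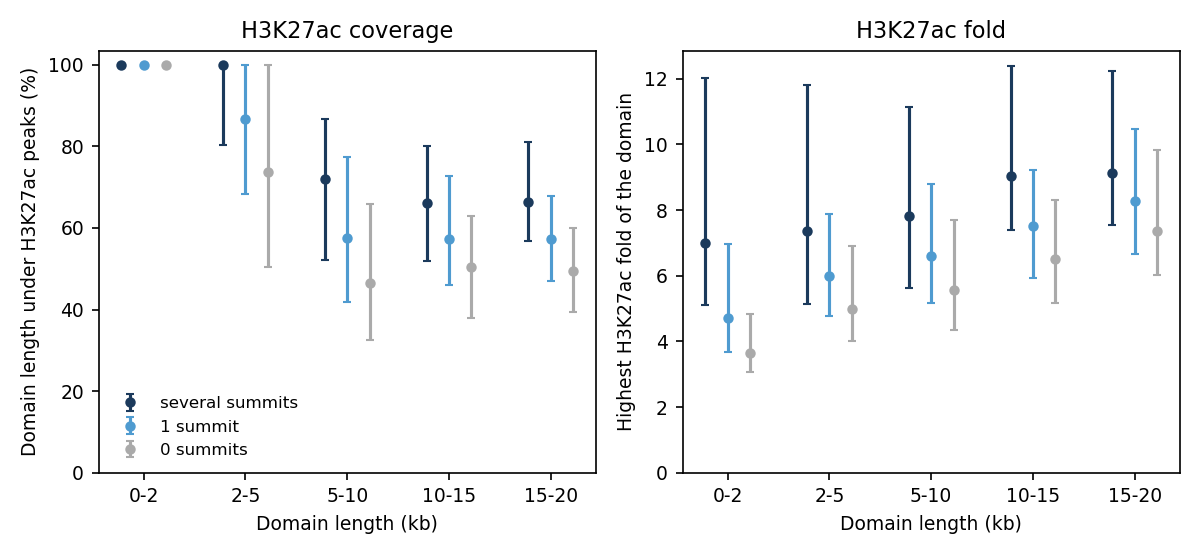
Percent of the domain length under H3K27ac peaks (left) and highest H3K27ac fold of the domain (right) by class of domain length in kb, for domains with several, 1 and 0 SOX10 summits. Points are medians and bars interquartile ranges over domains, without length weights. From 2 kb upwards both medians run in the order several, 1, 0 from highest to lowest.

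Within a multi-summit domain the acetylated peaks were unequal, and those with summits were mostly both stronger and wider. Of the 1176 H3K27ac peaks in these domains, 680 (57.8%) held no summit, 281 held 1 and 215 (18.3%) held several. Their median fold was 3.44, 5.81 and 9.12, and their median width 710, 2318 and 4220 bp. A wider peak has more room for summits, and the part of width in the order of the folds was not tested. In the 271 domains that had both kinds, the peaks with a summit had the higher median fold in 248 (91.5%, 87.5 to 94.5%) and the greater median width in 253 (93.4%). In the length-matched domains with 1 summit the same held for 86.5% and 87.4%. Counted by summit, 56.1% of summits (52.3 to 59.9%) in domains with 2 or more peaks lay in the peak of highest fold, and 59.3% did in the length-matched domains, which is inside that interval.

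SOX10 enrichment at these summits was close to that at lone ones. The median fold was 3.34 (3.28 to 3.43) against 3.28 at the length-matched lone summits, a difference of 0.0607 (−0.00012 to 0.148). The median number of fragments was 33 (32 to 35) against 34, and the median local background was 9.41 fragments (9.02 to 9.98) against 9.98. The fold difference ranged from −0.00849, when only summits inside H3K27ac peaks were counted, to 0.117 (0.0356 to 0.188), with H3K27ac peaks of a −log10 q of at least 3. Within a domain the highest fold was a median of 1.31 times the lowest, and it reached 2 times or more in 24 of 384 domains (6.25%). Over all 835 summits the interquartile range of the fold was 2.83 to 4.02. That is a different measure, so whether summits of a domain are more alike than others was not tested. In the 330 domains with 2 summits, the folds of the left and right summit had a Spearman's rho of 0.145, their fragments 0.143 and their local backgrounds 0.297. Over all neighbouring pairs, the rho of the folds was 0.295 under 500 bp (68 pairs), 0.153 at 500 to 2000 bp (160 pairs) and 0.0371 at 2000 bp or more (223 pairs). These are descriptions across domains that share a library, and both summits of a domain passed the same q-value cutoff. Summits under 500 bp apart can also share sheared fragments, so their folds are not separate measurements.

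**Figure D4:**
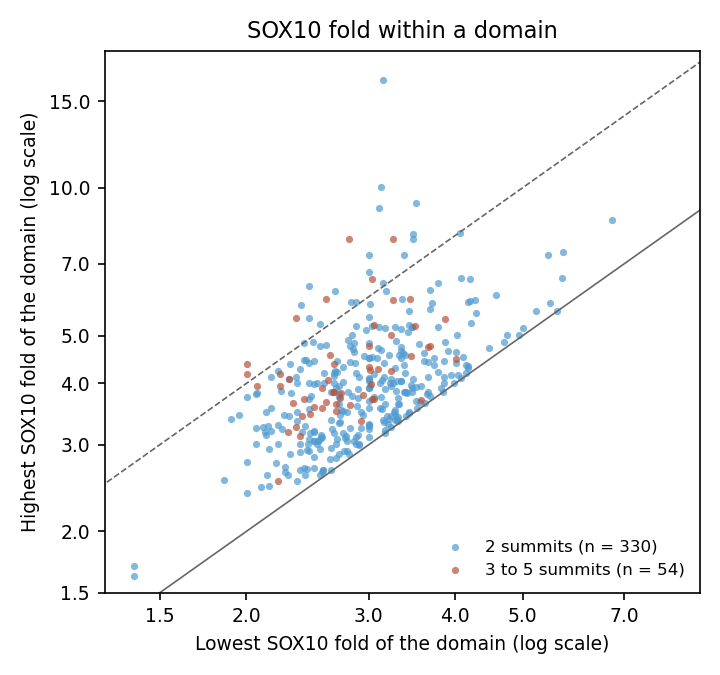
Lowest against highest SOX10 fold of each of the 384 multi-summit domains, on log axes, for domains with 2 summits (blue) and 3 to 5 (red). On the solid line both are equal, and on the dashed line the highest is 2 times the lowest: 24 domains lie on or above it.

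The 5 domains with the highest SOX10 fold each had 2 summits. The summit of fold 16.6 was at 11248292 of AKCR02000019.1, with 78 fragments over a background of 3.77 fragments. After rounding, this is the lowest background at any summit of the multi-summit domains. Its partner 5887 bp away had a fold of 3.15 with 21 fragments. That partner lay in a weaker H3K27ac peak (fold 2.82 against 12.3). On AKCR02000152.1 a summit of fold 10.0 had a partner of 3.13 at a distance of 11134 bp, in a stronger H3K27ac peak (fold 14.4 against 13.6). On AKCR02000433.1 one of 9.12 had a partner of 3.11 at 5530 bp in the same H3K27ac peak. The domain on AKCR02000433.1 began at position 1 of its scaffold, so its full length is not known. On AKCR02000043.1 a summit of fold 9.30 with 74 fragments had a partner of fold 3.51 with 18 fragments only 1353 bp away in the same peak. The fifth, at 6069334 to 6072514 of AKCR02000013.1, had 2 strong summits 1220 bp apart, with folds of 8.61 and 6.73 and 42 and 46 fragments. They lay in H3K27ac peaks of fold 13.4 and 4.57. The lowest SOX10 fold of this domain was the highest such value of the 384 domains, and 859 bp of its 3181 bp were under H3K27me3.

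H3K27me3 was measured independently of the rule. It touched 58 of the 384 multi-summit domains (15.1%, 11.7 to 19.1%) by at least 1 base, against 15.3% of the length-matched domains with 1 summit, which lies inside that interval. Of length-matched domains with 0 summits, 25.2% were touched, outside the interval. The difference from domains with 1 summit was −0.239 percentage points, and its interval of −3.67 to 3.74 leaves room for several points either way. By class of length from shortest to longest, the share in multi-summit domains was 4.35%, 10.5%, 11.8%, 16.3% and 24.7%. With 0 summits it was 13.9%, 15.4%, 20.9%, 31.4% and 34.8%, without length weights inside a class. The intervals of these 2 groups overlapped under 2 kb, at 2 to 5 kb and at 15 to 20 kb. Scaffold size moved with this result: where the scaffold spanned 1 Mb or more the share was 30 of 324 (9.26%, 6.33 to 12.95%), beside 9.13% with 1 summit and 13.5% with 0, and on shorter scaffolds it was 28 of 60 (46.7%), beside 50.8% and 63.4%. The length weights for these shares were those of all domains and were not refitted within each scaffold class. The part of scaffold size in the H3K27me3 result was not tested.

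**Figure D5:**
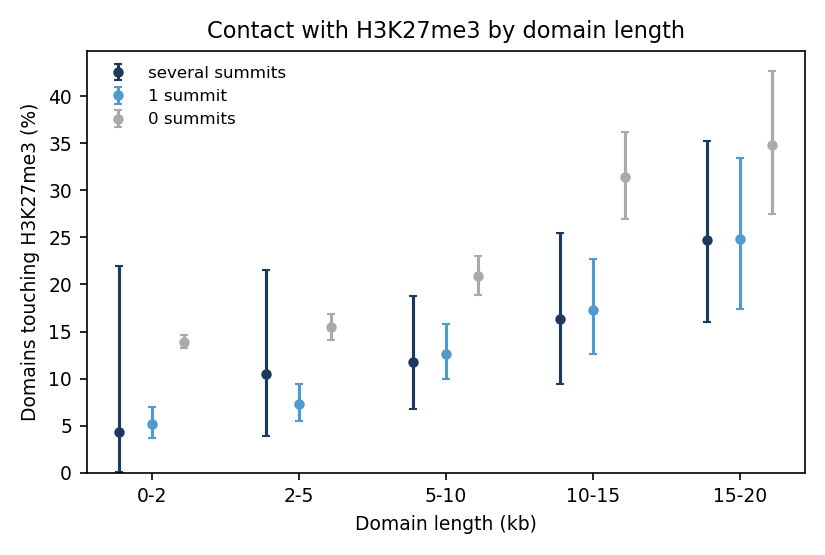
Percent of domains that share at least 1 base with an H3K27me3 peak, by class of domain length in kb, for domains with several, 1 and 0 SOX10 summits. Points are shares without length weights and bars exact 95% binomial intervals. In every class of length the point for 0 summits is the highest, and the intervals for several and for 1 summit overlap. Those for several and for 0 summits also overlap under 2 kb, at 2 to 5 kb and at 15 to 20 kb.

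Contact with H3K27me3 was mostly slight. The touched domains had a median of 686 bp of H3K27me3, 7.24% of their length, and in 23 of the 384 (5.99%) it reached 10% of the length or more, beside 5.22% of length-matched domains with 1 summit and 12.2% with 0. In all, 124 H3K27me3 peaks put 100616 bp under the mark, and 68.4% of these bases were also under an H3K27ac peak, near the 65.7% of these domains' bases that H3K27ac covered. Of the 835 summits, 12 (1.44%, 0.745 to 2.50%), in 11 domains, were inside an H3K27me3 peak, and all 12 were also inside an H3K27ac peak. The share of length-matched lone summits inside H3K27me3 was 1.07%, within that interval. The domains not in contact lay a median of 46521 bp (39420 to 55696 bp) from the nearest H3K27me3 peak of the scaffold, and the length-matched domains with 1 summit 51498 bp.

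The touched domains were less often on long scaffolds and had a higher median H3K27ac fold than the rest, a comparison without a test. Their median length was 11687.5 bp against 9022.5 bp, their median highest H3K27ac fold 11.8 (9.94 to 14.1) against 8.14 (7.55 to 8.68), and 51.7% of them were on scaffolds of at least 1 Mb against 90.2%. Their summits had a median fold of 3.51 (3.37 to 3.67) against 3.31 (3.24 to 3.38), but fewer fragments, 28 (27 to 32) against 34 (33 to 36), over a lower local background, 7.26 against 9.94 fragments. The share of summits inside H3K27ac peaks was alike, at 90.0% (83.5 to 94.6%) and 88.8% (86.2 to 91.0%).

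The 5 domains with the most H3K27me3 each had 2 summits, and none of these 10 summits was inside an H3K27me3 peak. The domain with the most, at 112648 to 130809 of AKCR02000164.1, had 12655 bp or 69.7% of its length under H3K27me3 and 38.7% under H3K27ac, in 7 peaks, with summits of fold 2.50 and 3.98, the second in a gap. At 3164930 to 3183320 of AKCR02000036.1, 50.8% of the length was under H3K27me3 and 67.3% under H3K27ac, with folds of 3.67 and 3.78. At 320266 to 339994 of AKCR02000189.1 the shares were 34.9% and 75.9%, and both summits were strong, with folds of 5.63 and 5.61. The others, on AKCR02000205.1 and AKCR02000564.1, had 41.4% and 44.1% of their length under H3K27me3 and SOX10 folds of 2.47 to 3.72. The domains on AKCR02000189.1 and AKCR02000564.1 end at the span of their scaffold, so their full length is not known. In the 2 marks together, bases were counted in bulk chromatin, so both on 1 molecule and each in a part of the cells cannot be told apart.

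At the length limit, 1 multi-summit domain was within 100 bp below 20 kb. It was 19981 bp long, at 3047352 to 3067332 of AKCR02000011.1, with 74.5% of its length under H3K27ac and 2 summits 17315 bp apart, the widest spacing of all pairs. Just above the limit lay a domain of 20006 bp at 154319 to 174324 of AKCR02000227.1, with 65.6% under H3K27ac, and one of 20063 bp at 523227 to 543289 of AKCR02000072.1, with 94.3%. Each had 2 summits inside H3K27ac peaks.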

How the data were processed

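The 3 deposited peak lists were used as they stand, 1 per library. The input has no peak list and was not analysed here. MACS3 3.0.0, SAMtools 1.16, Bowtie2 2.2.9 and bcl2fastq 2.20 appear in the submitters' processing notes without settings; control library and genome build: not given in the sources used here. Enrichment fold is a ratio over local background that the authors deposited for the summit (SOX10) or whole region (histone marks). The p-values and q-values were deposited as −log10, and the deposited score was not used. The SOX10, H3K27ac and H3K27me3 lists reach q-values of 0.0462, 0.0968 and 0.0965.

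Positions count from 1. A scaffold's span is its highest peak end in any list. Fragments and local background at SOX10 summits were solved from fold and p as (fragments + 1) / (background + 1) and a Poisson tail. All 6579 peaks had a whole number that gave the deposited −log10 p to within 0.001. Summits held 13 to 330 fragments (median 33). The exact 95% Poisson interval of a single summit with 33 fragments is 22.7 to 46.3. Total reads are unknown here. Comparisons are descriptive, since 1 library per target allows no test. Named regions are the 10 domains with the most summits, 5 each by highest SOX10 fold, most H3K27me3 bases and smallest spacing, and those within 100 bp of the limit. The members, comparisons and this rule were chosen with earlier results of these data known. Functions were tested on simulated lists (Python 3.11.15, numpy 2.4.6, pandas 2.3.3, scipy 1.17.1). No genome of the build was at hand, so no sequence or gene is given.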

Additional observations from a re-analysis of the deposited data

How the results depend on the processing

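Of 93 recalculations, 72 stayed inside the interval of the value reported or, for the number of domains, within 1.5 times it. Joining H3K27ac peaks over 2 kb moved the median spacing to 1602 bp, the share of summits in peaks to 94.4% and the coverage difference to 6.43 points; over 10 kb they were 2283 bp, 85.4% and 15.0 points, and the SOX10 fold difference was −0.00035. SOX10 peaks with a −log10 q of at least 5 gave 153 domains, a spacing of 2655 bp, 85.7% of summits in peaks, a difference in that share of −1.16 points and a difference in highest H3K27ac fold of 0.997. H3K27ac peaks with a −log10 q of at least 3 gave 92.8% of summits in peaks. Domains under 10 kb numbered 207, with a spacing of 1240 bp and 10.6% touching H3K27me3. That share was 9.26% on scaffolds of at least 1 Mb, 10.7% with H3K27me3 peaks of a −log10 q of at least 3, and 5.99% for at least 10% of the length. Counting only summits inside H3K27ac peaks gave a SOX10 fold difference of −0.00849, and counting summits under 500 bp apart as 1 gave a spacing of 2641 bp. The cause was not tested. The coverage difference (6.43 to 15.0 points) and the H3K27ac fold difference (0.997 to 1.59) kept their sign in 11 alternatives each, whereas the H3K27me3 difference changed sign in 7 of 13 (−1.96 to 1.65 points), the difference in summits in peaks in 1 of 10 (−1.16 to 4.46 points) and the SOX10 fold difference in 2 of 11 (−0.00849 to 0.117). Shares of summits in peaks were not run with only such summits counted, which fixes them. The setting with a local background under 30 fragments was chosen after seeing the data. No replicate could be left out. No paired analysis was possible because only 1 library was available for each target. No listed summit held fewer than 13 fragments, so weaker second summits are not covered.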

Other observations

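Multi-summit domains lay on 137 of the 1361 scaffolds with an acetylated domain. Neighbouring ones on a scaffold were a median of 1352100 bp apart, and 36 of 247 such distances (14.6%) were under 100 kb. Another SOX10 summit lay within 20 kb outside the domain for 123 of 384 (32.03%, 27.4 to 37.0%), against 29.2% of length-matched domains with 1 summit, a value inside that interval.

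At 6 of the 835 summits (0.719%, 0.264 to 1.56%), in 4 domains, the local background was 30 fragments or more, against 20 of all 6579 (0.304%). The summit with the most fragments of the whole list was among them, at 1346357 of AKCR02000057.1, with 330 fragments over a background of 240 and a fold of only 1.38. On AKCR02000040.1, 2 such summits lay 2049 bp apart, with 264 fragments over 192 and 243 over 143. These were picked after their values were seen. Without all SOX10 peaks of such background, 381 multi-summit domains remained in number and the median spacing was again 1956 bp.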
